A study of Arabidopsis thaliana with 15 samples.

Results

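Trimethylation of lysine 36 of histone H3 (H3K36me3) was profiled against total H3 in seedlings of Arabidopsis thaliana, and every listed peak of the mark was taken, 13491 of the 54366 peaks listed for the 3 histone marks of the series. Each peak had been called on pooled H3K36me3 libraries over pooled H3 libraries, and was placed on genes by its position and summit in the TAIR10 genome. Peaks of H3K36me3 lay under 13697 of 27444 nuclear protein-coding genes (49.9%), with a gene counted as a carrier where 200 bp or more of its body lay under peaks (for genes below 400 bp, 50% of the body). With 1 bp as the rule 50.4% of genes were carriers, with a summit inside the gene 48.2%, and with 50% of the body for every gene 42.4%.

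In plants, H3K36me3 is laid down on transcribed genes, mainly by the methyltransferase EFS (also called SDG8), which can act on nucleosomes behind RNA polymerase II. It is read by chromodomain proteins such as MRG1 and MRG2 and is known in Arabidopsis for its part in the expression of the flowering repressor FLC. H3K4me3, which is set beside it here, is the usual mark of the starts of active genes.

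The chromatin came from whole seedlings of the ecotype Col-0, grown for 8 days on MS plates under long days. Nuclei were digested with micrococcal nuclease and precipitated without crosslinking (native ChIP-seq), using an antibody to H3K36me3 or to H3. The genotypes were wild-type plants, the single mutant fpa-7 and the triple mutant bdrs, whose alleles the labels do not name. FPA encodes an RNA-binding protein of RNA 3′ end formation. H3K36me3 and H3 each had 1 library per genotype, so 3 libraries each. Which of them were pooled is not stated, and the list holds no value for a single library. There was thus no replicate error, no depth per library and no difference between genotypes to report, and no test was made. The spread given is the range over the 5 chromosomes, which is variation along 1 genome. In whole seedlings, a mark in fewer cells and less of the mark per cell cannot be told apart.

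H3K36me3 peaks lay inside genes and were mostly shorter than the genes they lay on. Their width had a median of 1623 bp, with 10th and 90th percentiles of 948 and 3021 bp, and 58.2% of them were 1 to 2 kb wide. Peaks over 4 kb made up 5.19% of the list, and the widest spanned 25621 bp. The authors' fold over pooled H3, a value of each peak in that list, ranged from 1.60 to 10.6 with a median of 5.68. Wider peaks had higher folds, with a median of 3.76 for the 204 peaks under 500 bp, 5.71 for those of 1 to 2 kb and 6.04 for those over 4 kb. The summit, the highest point of the peak, lay inside a protein-coding gene for 13179 peaks (97.7%). Among all peak bases, 98.3% fell in coding genes. Moving the peaks by 100 bp to either side lowered this to 97.5% and 97.6%, and by 1000 bp to 81.8% and 82.0%, so peaks and gene table were in register to about 100 bp.

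The 5 chromosomes were alike. Chromosome 2 had the lowest share of carriers, 47.1% of 4317 genes, and chromosome 3 the highest, 51.2% of 5460. Chromosomes 1, 4 and 5 lay between, at 49.9%, 49.5% and 51.0%. The median peak width was 1572 to 1642 bp and the median fold 5.65 to 5.73 on each. With 1 gene as the unit, 13455 carriers held 1 peak of at least 200 bp, 207 held 2 and 2 genes held 3.

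Longer genes carried H3K36me3 more often. Coding genes were split by length into 10 deciles of equal number. In the shortest decile, up to 770 bp long, 248 of 2745 genes (9.03%) were carriers, with 7.19% to 10.5% on single chromosomes. In the fifth decile, from 1789 to 2078 bp, 54.2% were carriers (52.2% to 56.3%), and in the longest decile, from 4233 bp, 76.4% were (74.3% to 78.1%). The chromosome ranges of these 3 deciles did not overlap. Between the sixth and the seventh decile the share hardly moved, at 62.3% and 63.2%, and the chromosomes overlapped. Carriers had a median length of 2557 bp and non-carriers of 1547 bp. A rule in base pairs is harder to meet in short genes, and with 1 bp under a peak as the rule the shortest decile was at 9.95%. With a summit inside the gene as the rule it was at 5.50%. H3K4me3, placed on genes by the same rule, was listed on 62.7% of coding genes and went from 15.8% in the shortest decile to 87.1% in the longest. Both marks were called over the same H3 control, so their values are given side by side and no relation between the lists is drawn from them.

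**Figure D1:**
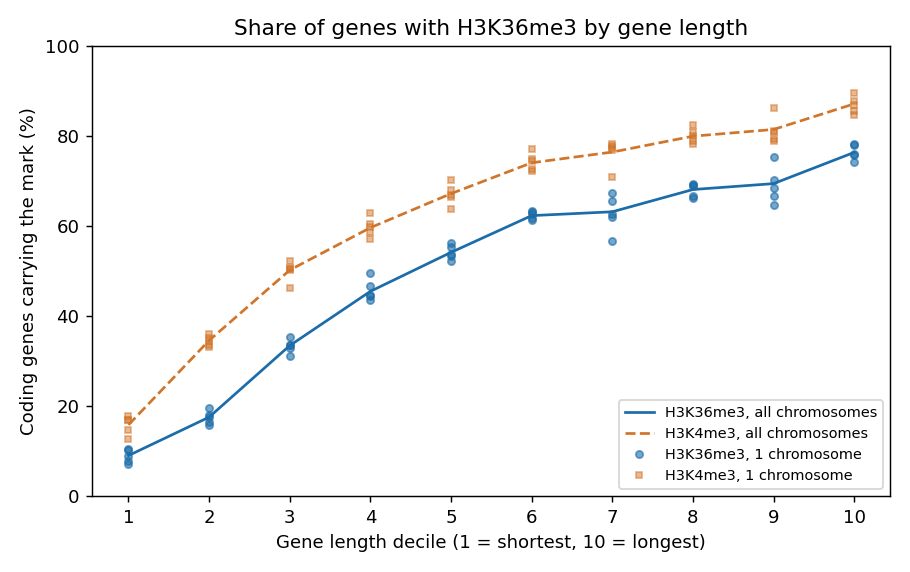
Share of coding genes (%) carrying H3K36me3 (blue circles, solid line) and H3K4me3 (orange squares, dashed line) in each decile of gene length, shortest to longest; lines are all chromosomes and points single chromosomes. H3K36me3 goes from 9.03% to 76.4%, and the 5 chromosomes stay close to the line.

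Once a gene carried H3K36me3, its length went with how much of it was covered and hardly with the fold. The median covered length was 477 bp in the shortest decile, 1376 bp in the fifth and 3274.5 bp in the longest. As a share of the gene, the cover was 92.7% in the shortest decile, 59.1% in the ninth and 63.0% in the longest. Peaks on carriers of the shortest decile, with genes up to 770 bp, had a median width of 1248 bp, so they often reached past the gene. The median fold was 5.25 in the shortest decile and 5.81 in the longest, against a range of 3.81 to 7.17 between the 10th and 90th percentile of all peaks. Over all carriers, a median of 65.9% of the body lay under peaks, and 851 carriers (6.21%) were covered over more than 90%.

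Named genes at both ends of the length range went against the trend. The longest coding genes with a symbol and no listed H3K36me3 were the callose synthase gene GSL09 (16053 bp), TIL2, a gene for a catalytic subunit of DNA polymerase epsilon (13184 bp), the callose synthase gene CALS5 (12062 bp), GMI1, a gene known to be induced by DNA damage (11384 bp), and the glucan synthase gene GSL11 (11154 bp). Of these 5, H3K4me3 was listed on GSL11 alone, at a fold of 2.80, and H3K4me2, which was on 75% of all coding genes, on all 5. The shortest carriers with a symbol and a peak of their own were SK18, an SKP1-like gene of ubiquitin ligases (477 bp), MAPR2 (484 bp), the chloroplast outer envelope gene OEP7 (574 bp), BLOS2 (677 bp) and TOM22-I, a gene for a receptor of mitochondrial protein import (690 bp). MAPR2 had the highest fold of the 5, 7.02 on chromosome 2 from 10609424 to 10610459, a peak of 1036 bp that reached past the gene. SK18 had the lowest, 3.83 on chromosome 1 from 3355601 to 3356347.

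H3K36me3 peaks began near 1 end of the gene, had their summit early and mostly ended before the other end. The gene table gives no strand, so distances were measured from the gene end nearer the H3K4me3 summit, in 11312 carriers with 1 peak of each mark and an H3K4me3 summit in an outer part of the gene. Their H3K36me3 peak had 200 bp or more on no other coding gene. Peaks that ran on over 200 bp or more of a neighbouring coding gene were thus left out, so the far edge is partly set by this filter. The H3K36me3 peak began a median of 78 bp into the gene and had its summit at 331 bp (quartiles 250 and 459 bp), with chromosome medians of 326 to 336 bp. It ended at 1762 bp, or 69.4% of the gene (quartiles 60.8% and 78.4%), with chromosome medians of 69.1% to 69.8%. A median of 877.5 bp at the far end was left uncovered. In the same genes the H3K4me3 peak began at 52 bp, had its summit at 285 bp and ended at 919 bp, or 36.2% of the gene. The near edges and summits of the marks were thus within 50 bp of each other at the median, and the far edges lay over 800 bp apart. The choice of end rests on H3K4me3, so the nearness of H3K36me3 to that end is partly set by the choice. The H3K36me3 summit lay more than 1 kb from that end in 125 of these genes (1.11%).

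The far edge of H3K36me3 lay farther out in longer genes, and that of H3K4me3 at about the same distance. In genes of 1 to 2 kb the H3K36me3 peak ended at a median of 1305 bp (80.5% of the gene), in those of 2 to 4 kb at 1810 bp (67.1%), and in those of 4 to 8 kb at 3070.5 bp (64.1%). In the 212 genes of 8 kb or more it ended at 7251 bp (78.4%). H3K4me3 ended at 865, 945, 931.5 and 909.5 bp in the same 4 classes. The uncovered stretch at the far end grew from 316 bp in the 1 to 2 kb class to 922, 1814 and 2239.5 bp in the longer ones. The H3K36me3 summit stayed in place, at 305, 344, 342 and 334 bp. Peaks that came within 200 bp of the far end or passed it were found on 810 of these genes (7.16%), 605 of which were 1 to 2 kb long. Peaks shared with another coding gene had been left out.

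**Figure D2:**
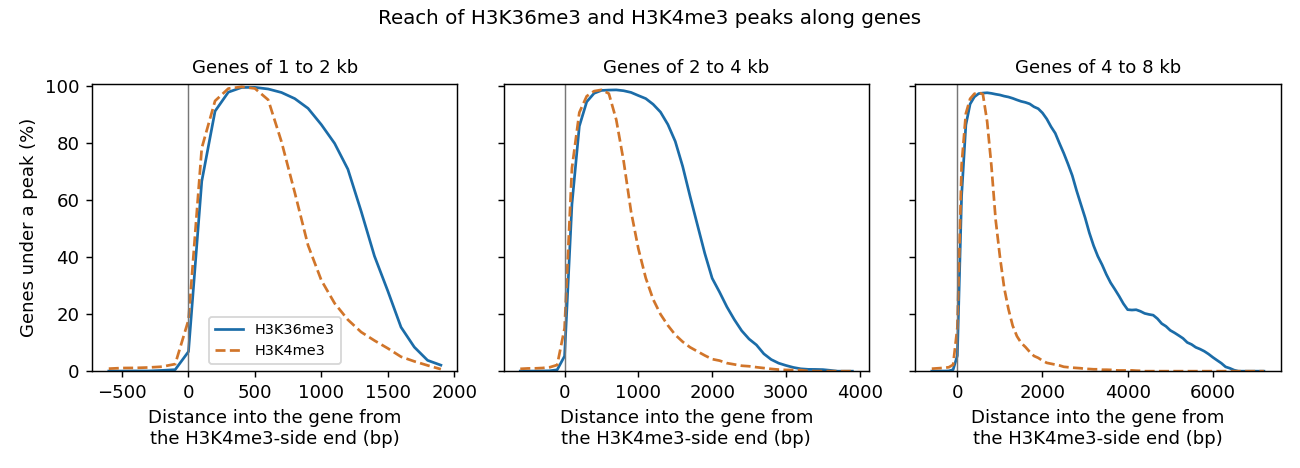
Share of carriers (%) whose H3K36me3 (blue) or H3K4me3 (orange) peak covers each distance (bp) from the gene end nearer the H3K4me3 summit, in 3 classes of gene length. Carriers whose H3K36me3 peak was shared with another coding gene were left out, and each distance counts only genes at least that long. At 1000 bp, H3K36me3 covers 96.8% and H3K4me3 43.0% of genes of 2 to 4 kb, and at 3000 bp H3K36me3 still covers 54.0% of genes of 4 to 8 kb.

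Most peaks belonged to 1 gene. At least 200 bp of 2 coding genes lay under 595 peaks and of 3 genes under 25, together 4.60% of the list, while 261 peaks had no gene with 200 bp. The 1259 genes that share a peak cannot be told apart by it. The peaks over 3 genes with the highest −log10 p lay on CGL1, a gene of protein glycosylation, with AT4G38250 and AT4G38260 (chromosome 4 from 17932726 to 17938254, fold 8.50), and on EMB3143, NdhN and ABCB25 (chromosome 5 from 23559518 to 23565981, fold 6.93). NdhN encodes a subunit of the chloroplast NDH complex and ABCB25 a mitochondrial transporter. Neighbouring genes often shared their state. Both genes of a neighbouring pair were carriers in 28.4% of 27439 pairs, where the square of the overall share is 24.9%. After a carrier, 56.9% of genes were carriers, and after a non-carrier 42.9%. A peak over several genes joins neighbours by construction, and 898 pairs lay under 1 peak together. Without these pairs, a step added after seeing the data, both genes were carriers in 26.4% of 26541 pairs, where the square of their share is 23.4%, and 54.5% of genes after a carrier and 42.7% after a non-carrier were carriers. The longest unbroken run of carriers was 16 genes on chromosome 5, from AT5G21990 to AT5G22140. The longest run of non-carriers was 100 genes on chromosome 2, from AT2G07440 to AT2G07680.

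Genes in the gene-poor parts of the chromosomes carried H3K36me3 less often. The 14 bins of 1 Mb with the fewest coding genes, 15 to 82 each, held 611 genes, of which 156 (25.5%) were carriers, with 6.67% to 36.8% in single bins. The other 107 bins held 26833 genes, of which 50.5% were carriers (3.31% to 67.2%). The lower share was found on each chromosome: 29.5% against 50.2% on chromosome 1, 28.3% against 48.1% on chromosome 2, 14.0% against 51.9% on chromosome 3, 20.8% against 49.8% on chromosome 4 and 27.9% against 51.5% on chromosome 5. Genes in these bins were shorter, with a median of 1503 bp against 2086 bp. Within classes of length the shares were 4.29% against 12.0% under 1 kb, 18.1% against 40.6% at 1 to 2 kb, 43.9% against 65.4% at 2 to 4 kb, and 69.1% against 75.5% at 4 kb or more. The gene-poor bins were lower in all 4 classes, and nearest to the others in the longest. H3K4me3 was listed on 31.8% of genes in these bins against 63.4% elsewhere, and H3K4me2 on 36.8% against 75.9%.

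Carriers in gene-poor bins had peaks like those elsewhere. Their median fold was 5.56 against 5.71, and the median share of the body covered 63.1% against 66.0%. Among genes with a symbol, which 19.6% of the genes there have, the peaks of highest −log10 p lay on BZO2H3, a bZIP transcription factor gene (chromosome 5 from 10796856 to 10798151, fold 8.33), and PCN (chromosome 4 from 4202491 to 4205204, fold 8.62). The calcium-dependent kinase gene CDPK2 (fold 7.32), the mitochondrial malic enzyme gene NAD-ME1 (7.35), the endoplasmic reticulum chaperone gene BIP1 (7.64) and CAS1, for the cycloartenol synthase of sterol synthesis (7.50), followed in that order. The lowest share of all bins was outside the gene-poor set, on chromosome 2 between 3 and 4 Mb, where 4 of 121 genes were carriers and H3K4me3 and H3K4me2 were also listed on 4 genes each. Its genes had a median length of 941 bp. By its identifier, MCM5 (AT2G07690) follows the run of 100 non-carriers, and its peak starts at 3524977, in this bin. The run and the bin are thus not separate results, and how well reads could be placed there was not tested. The highest shares were 67.2% of 305 genes on chromosome 3 and 65.4% of 133 genes at the end of chromosome 1.

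**Figure D3:**
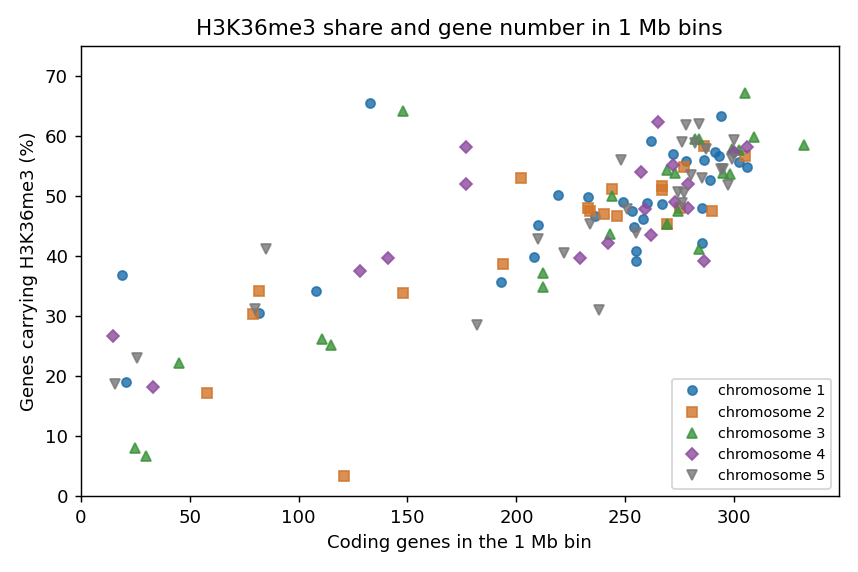
Share of coding genes (%) carrying H3K36me3 against the number of coding genes in each bin of 1 Mb. Each chromosome has its own marker and colour, and the last bin of a chromosome is shorter. The 14 gene-poor bins, with at most 82 genes, sit between 6.67% and 36.8%. The lowest point is a bin of chromosome 2 with 4 carriers among 121 genes.

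In 4 of the 29 gene classes, the markers of shoot photosynthesis among them, every gene found carried H3K36me3. Class members were found by symbol or synonym, so genes of a family can be missing. Each share is that of the genes found. All 32 proteasome subunit genes found in the table, of 45 looked for, were carriers, as were all 19 genes of SR splicing factors and all 7 nucleoporin genes found, of 26 looked for. Of all coding genes in the same length deciles, 63.7%, 65.6% and 74.4% were carriers. Among the proteasome genes, whose products degrade ubiquitin-tagged proteins, folds ran from 3.78 on RPT5B to 8.13 on RPT4A with a median of 6.44, and RPT6A stood next at 8.01. RPT4A, an ATPase of the regulatory particle, held a peak of 1910 bp on chromosome 5 from 17249230 to 17251139 that covered 65.6% of the gene. The paralogue of RPT5B, RPT5A, had a fold of 7.60. These paralogues can share reads, so how their peaks divide is uncertain. Among the SR genes, folds ran from 5.01 on RS31a to 8.55 on SR34, with SCL30A at 8.22. Among the nucleoporin genes, folds were 5.42 to 7.03, highest on SAR3, with EMB2766 at 6.80 under a peak shared with another gene.

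In 4 further classes 1 gene was not a carrier. Of 18 translation initiation factor genes 17 were carriers, with folds of 4.13 to 7.88, highest on EIF4G, a scaffold of the cap-binding complex, whose peak of 5541 bp covered 80.9% of the gene, with EIF3E next at 7.79. The exception was TIF3C2, which had no H3K4me3 either, while its paralogue EIF3C was a carrier at 6.10. Of 13 genes of the vacuolar proton ATPase, which acidifies the vacuole, 12 were carriers, VHA-A1 at 7.99 and AVA-P4 at 7.82 among them. The exception VHA-E2 had H3K4me3 at a fold of 3.54. Of 10 aminoacyl-tRNA synthetase genes 9 were carriers, OVA5 and ERS at 7.79 and 7.78 the highest by −log10 p, and NS2 was not, with H3K4me3 at 6.07. Of 21 autophagy genes 20 were carriers, and the exception G18E carried H3K4me2 only. Their folds were 3.25 on ATG8G to 7.17 on ATG2, which codes for a lipid transfer protein of the growing autophagosome, and ATG8E had 6.55. The shares of carriers in the same length deciles were 64.8%, 64.3%, 71.0% and 55.7%.

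**Figure D4:**
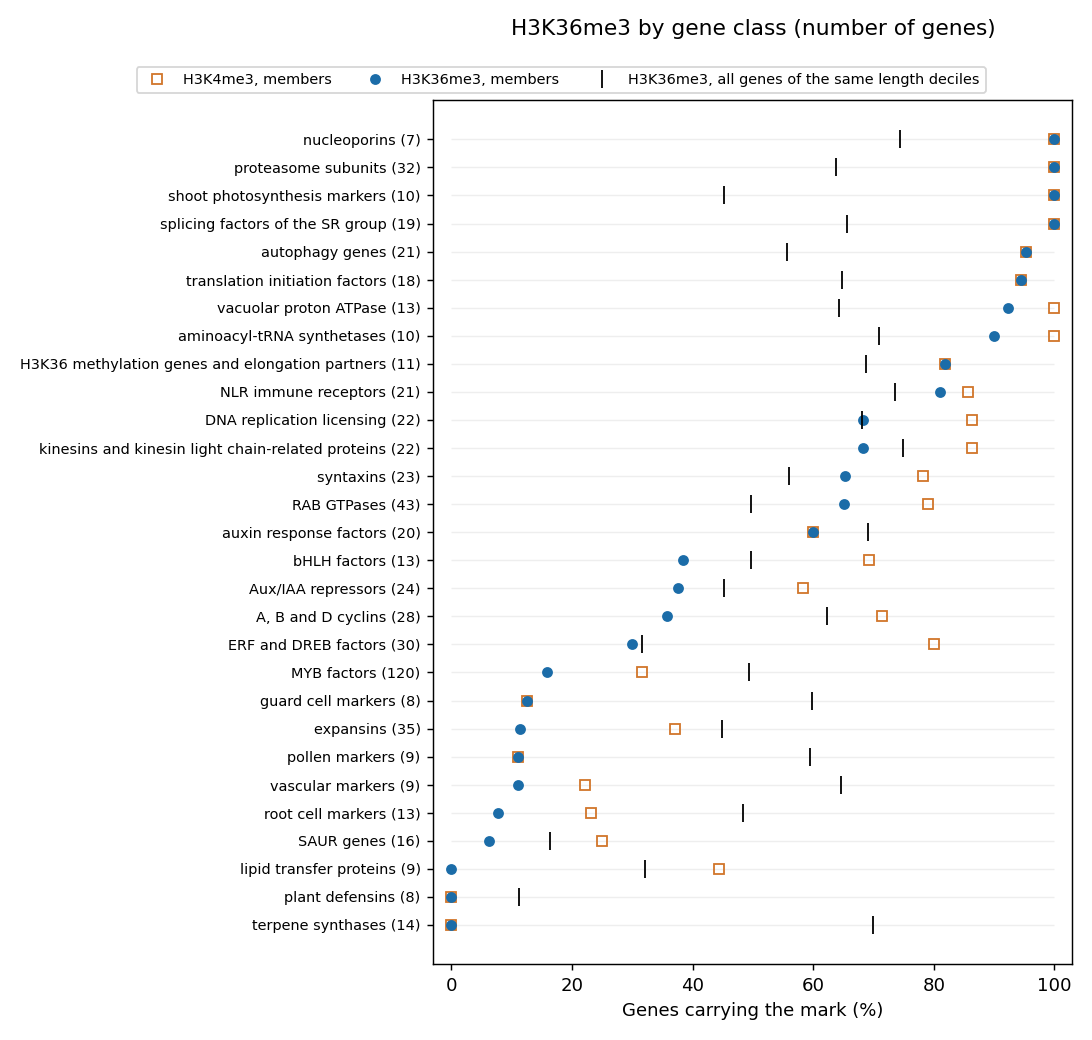
Share of genes (%) carrying H3K36me3 (blue circles) and H3K4me3 (orange squares) in 29 gene classes, with the number of genes of each and, as black ticks, the H3K36me3 share of all coding genes in the same length deciles. Classes at the top reach 100% against ticks of 45.2% to 74.4%, and terpene synthases lie at 0 against a tick of 70.0%.

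The list of H3K36 genes was near the share at like length. Of 11 genes found for H3K36 methylation and elongation partners, of 12 looked for, 9 were carriers. Of all coding genes in the same length deciles, 68.8% were. Of its 5 methyltransferase genes 3 were carriers. EFS, the main H3K36 methyltransferase gene, had a peak of 7444 bp on chromosome 1 from 29041904 to 29049347 at a fold of 7.35, over 78.1% of its 9533 bp. HMG, the table's name for the FACT subunit gene SSRP1, had 7.24, its partner SPT16 5.63 and the elongation factor gene IWS1 7.05. The methyltransferase genes ASHH1 and ASHH3 had 5.47 and 6.02, and the jumonji gene JMJD5 4.71. AT4G37280 and AT1G02740, which the table's synonyms give as MRG1 and MRG2, had 5.68 and 5.49. SDG4 and ASHH4 carried neither H3K36me3 nor H3K4me3, and both carried H3K4me2. On FPA, the H3K36me3 peak at a fold of 6.71 covered 55.4% of the gene, and on FLC a peak of 3302 bp at 4.71 covered 54.4%. In which genotype these peaks were present cannot be told apart in the pooled list.

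DNA replication licensing genes had H3K36me3 at low folds, and A, B and D cyclin genes had it less often than genes of like length. Of 22 DNA replication licensing genes 15 were carriers, and 68.1% of all coding genes of like length were. Their folds had a median of 3.83, the lowest of the classes with at least 5 carriers, with ORC5, a subunit of the origin recognition complex, at 6.27, the clamp gene PCNA2 at 5.05, and the other 13 between 3.18 and 4.14. MCM6, MCM3, MCM4 and ORC2 were among the 7 without H3K36me3. MCM2 and MCM5, of the same helicase, had 4.01 and 3.20. Of 28 cyclin genes of the A, B and D types 10 were carriers (62.2% at like length), and H3K4me3 was on 20 (71.4%, against 62.7% of all coding genes). The carriers were 4 A-type and 6 D-type cyclins, with CYCA3;4 at 6.85, CYCD3;2 at 6.30, CYCD2;1 at 6.28 and CYCD3;3 at 5.70. None of the 9 B-type genes, among them CYCB1;5 and CYCB3;1, was a carrier. The D-type genes without the mark were CYCD3;1, CYCD4;2, CYCD6;1 and CYCD7;1. The lower share is thus that of the types pooled, and like-length shares of single types were not computed. Of 22 genes of kinesins and kinesin light chain-related proteins, the first of which are motors on microtubules, 15 were carriers (74.9% at like length). This list also holds genes with roles outside the cell cycle. ARK2 had 7.89 and KINESIN-13A 7.45, while POK1, KP1, MRH2 and ATK5 had no listed H3K36me3 peak. With 50% of the gene body as the rule, 31.8% of the licensing genes, 17.9% of the cyclin genes and 36.4% of the kinesin list were carriers. Under that rule 42.4% of all coding genes and 59.8% of the longest decile were carriers, and shares at like length were not computed.

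Genes of membrane traffic were split. Of 43 RAB GTPase genes 28 were carriers (49.7% at like length), with RABA5d at 7.81 and RAB8C at 7.75, and with RABC2A, RABA3, RABC2b and RABB1a as the longest of the 15 non-carriers. RAB8C and RABC2A are neighbours by their identifiers, AT5G03520 and AT5G03530, and the RAB8C peak from 883548 to 885182 on chromosome 5 lay on RAB8C alone. Of 23 syntaxin genes, which act in membrane fusion, 15 were carriers (56.0% at like length). The endosomal SYP21 had a fold of 9.16 and the plasma membrane syntaxin SYP121 7.95, while SYP72, SYP131, SYP73 and SYP112 had no listed H3K36me3 peak. SYP131 also lacked listed H3K4me3 and H3K4me2.

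**Figure D5:**
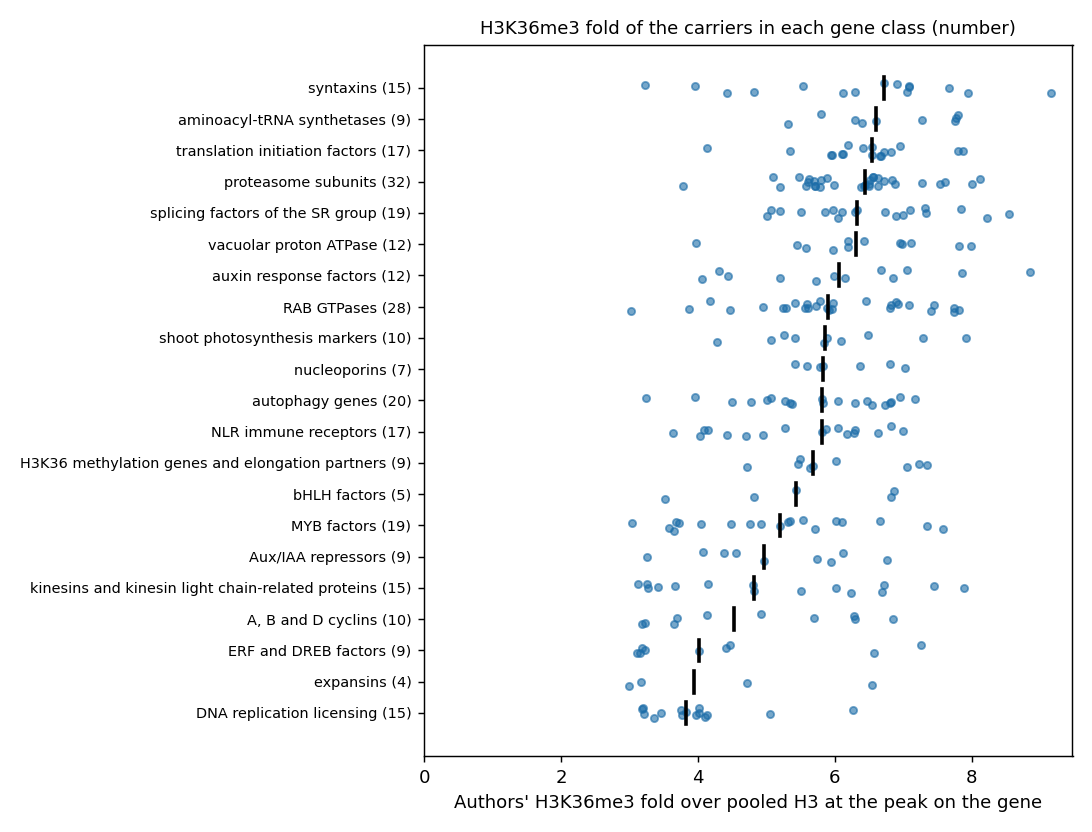
Authors' fold over pooled H3 of the H3K36me3 peak on each carrier (points, jittered up and down) in the classes with at least 4 carriers; black bars are medians and numbers in brackets carriers. Medians run from 3.83 for DNA replication licensing to 6.72 for syntaxins, and 13 of the 15 replication genes lie at 4.14 or below.

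Among the genes found of 3 families of transcription factors, the MYB genes stood farthest below genes of like length. Of 120 MYB factor genes 19 were carriers (15.8%), where 49.3% of genes of like length were. H3K4me3 was on 38 of them (31.7%, against 62.7% of all coding genes of any length). MYB70 had a fold of 7.58, MYB65, known for its part in anther development, 7.35, MYB4R1 6.66 and MYB73 6.01. MYB3R-4, which acts in mitotic gene expression, and MYB21 had neither mark. Of 30 ERF and DREB factor genes 9 were carriers, close to the 31.6% of genes of like length, and 24 (80%) had H3K4me3. ERF7 and ERF3 had folds of 7.25 and 6.58, the drought regulator DREB2A 4.41 and ERF4 4.46. DREB26 had H3K4me3 at 7.91 and no H3K36me3, and the cold regulator DREB1A had neither. Of 13 genes with a bHLH symbol, which need not stand for the whole family, 5 were carriers (49.7% at like length). They were led by bHLH121, bHLH34, bHLH104 and bHLH115 at 6.86, 6.82, 5.43 and 4.82. The fifth carrier was bHLH093. BHLH100, bHLH38, bHLH39, BHLH101, bHLH11 and BHLH92 were not carriers. These 7 genes were named after their values were seen. bHLH071 and BHLH32 carried H3K4me3 only of the trimethyl marks.

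Genes of the auxin response were counted in 3 families, each near its share at like length. Of 20 auxin response factor genes 12 were carriers (69.1% at like length), with ARF2 at 8.85 and ARF17 at 7.85. The 8 others, among them ARF20, ARF13, ARF21 and ARF22, all lie on chromosome 1 and carried neither H3K4me3 nor H3K4me2. For 5 of the 8, no called H3K36me3 peak had been left out between the listed peaks beside them. Their sequences are much alike, so reads may have been shared among them and a value for 1 of them is uncertain. Of 24 Aux/IAA repressor genes 9 were carriers (45.2% at like length), with IAA12 at 6.77, IAA8 at 6.12, IAA9 at 5.94 and IAA11 at 5.74, while IAA7 and IAA14 had H3K4me3 at 5.88 and 4.90 without H3K36me3. Of 16 SAUR genes, short genes of rapid auxin response, 1 was a carrier (16.4% at like length), the gene AT5G01830 that the table names SAUR21, whose 2865 bp stand against a class median of 738.5 bp. The symbol may not fit this gene, and the other 15 genes had no listed H3K36me3 peak. Of 35 expansin genes, whose products loosen cell walls, 4 were carriers (44.8% at like length). EXPA13, EXPA1 and EXPA6 had folds of 4.72, 3.17 and 3.00, and EXLA1 6.54 under a peak shared with another gene. EXP3 and EXPB3 had H3K4me3 only of the trimethyl marks.

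In 3 of the 29 classes no gene had listed H3K36me3. The counts were 0 of 14 terpene synthase genes, 0 of 8 plant defensin genes and 0 of 9 lipid transfer protein genes, where 70.0%, 11.2% and 32.1% of genes of like length were carriers. For the short defensin genes the count of 0 is near the share at like length. The terpene synthase genes had a median length of 3579.5 bp, and PEN1 and PEN3 were the longest. This list was made by name, and its count depends on the names used. It did not hold CAS1, the cycloartenol synthase gene, which was a carrier at a fold of 7.50. H3K4me3 was on 4 of the 9 lipid transfer protein genes, at 3.28 on LTP and 3.17 on LTPG2 as the longest, and on none of the other 2 classes. It was on 62.7% of all coding genes. Called peaks were left out of the list beside 7 of the 14 terpene synthase genes, so a weak peak there may have been dropped. Beside the other 7 none was. Of the 9 lipid transfer protein genes, 1 had no left-out peak beside it, and of the 8 defensin genes 6 had none.

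The immune receptor genes of the NLR class carried H3K36me3 over a small share of the gene. Of 21 genes found, of 26 looked for by name, 17 were carriers (73.5% at like length). A median of 37.1% of their body was covered, against 65.9% over all carriers, and folds were 3.63 to 7.00. With 50% of the body as the rule, 19.0% of them were carriers, where 42.4% of all coding genes and 59.8% of the longest decile were. DAR4 had the strongest peak, 4586 bp on chromosome 5 from 5916955 to 5921540 over 69.1% of the gene, and ADR1-L2, a helper of other receptors, had 6.63 over 52.4%. On RPP4 a peak of 493 bp covered 6.69% of 7372 bp, and on RPP1 one of 726 bp covered 12.1%. RPS4 and RRS1, a known receptor pair that lies head to head, had separate peaks on chromosome 5, from 18324246 to 18326055 at 6.18 and from 18326176 to 18328525 at 4.70. RPM1 and ZAR1 had H3K4me3 at 6.74 and 4.63 and no H3K36me3, and SUMM2 and AT1G17610 had neither. RPP4, RPP1, RPS4 and RRS1 were chosen after their values were seen. Several of these genes lie in clusters of similar copies, so reads may be shared.

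Markers of cell types were set against the tissue label. All 10 shoot photosynthesis markers were carriers (45.2% at like length), with a median of 90.1% of the body covered and folds of 4.27 on RCA, for Rubisco activase, to 7.91 on PSAF, a photosystem I subunit. PSBP-1, of the oxygen-evolving complex, had 5.42 over 94.0% of the gene. Of 13 root cell markers 1 was a carrier, SCR, a regulator of the endodermis, at 5.62, and PLT1 and PLT2 were not. Of 9 pollen markers the receptor kinase gene ANX1 was the carrier, at 6.54, and CALS5 and ACA9 were not. Of 8 guard cell markers OST1, a kinase of abscisic acid signalling, was the carrier, at 5.24, and KAT1 and FMA were not. Of 9 vascular markers the cellulose synthase gene CESA4 was the carrier, at 5.19 over 22.5% of the gene, and SUS5 and IRX3 were not. The shares at like length of these 4 classes were 48.3%, 59.5%, 59.7% and 64.7%.

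Genes with H3K36me3 also differed in annotation. The share of carriers was 40.3% of genes with 1 transcript in the table and 60.8%, 69.5%, 69.2% and 72.4% of those with 2, 3, 4 and 5 or more. Genes with more transcripts are longer, with a median of 1678.5 bp for 1 transcript and 2700 bp for 2 or more. In the fifth decile of length, 63.0% of genes with 2 or more transcripts and 48.5% of those with 1 were carriers, in the sixth 67.3% and 58.1%, and in the longest 77.1% and 74.9%. Genes with a symbol were carriers in 58.5% of cases and those without in 44.7%, with median lengths of 2487 and 1835 bp.

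Outside coding genes, small nucleolar RNA genes stood out by number. Of 203 snoRNA genes clear of coding genes, 138 (68.0%) lay under H3K36me3 peaks, against 52 of 191 genes of the table's type ncRNA (27.2%), 25 of 237 microRNA genes (10.5%), 19 of 562 tRNA genes (3.38%), 54 of 2059 long non-coding RNA genes (2.62%) and 58 of 3852 pseudogenes (1.51%). The snoRNA genes have a median length of 92 bp and often lie in clusters, so several can share a peak and 1 gene is not an independent point. None of 45 small nuclear RNA genes clear of coding genes was covered. Of the 312 summits outside coding genes, 74 lay in long non-coding RNA genes, 54 in ncRNA genes and 51 in pseudogenes. Transcribed pseudogenes held 44, snoRNA genes 26, genes of the type misc_RNA 22 and microRNA genes 13. A summit where such genes overlap was counted for each of them. Outside every gene of the table lay 60.

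The end of the list shows where its limit lies. Its weakest peaks on genes with a symbol had −log10 p values of 55.2 to 55.7 and folds of 2.81 to 3.15, and lay on BZIP34, EMB2247, the Argonaute gene AGO6, G6PD3 of the pentose phosphate pathway and PAP15. The peak numbers in the list run to 21492 along the genome, and at most 62.8% of the called peaks were kept, since any numbered above the last one listed cannot be seen. Of 13607 non-carriers with no base under a peak and a listed peak on either side, 5137 (37.8%) had no called peak left out between those peaks. For the others, a weaker called peak on the gene cannot be told apart from none. A further 125 non-carriers had at least 1 but under 200 bp beneath a peak. Fold and −log10 p together were shared with another peak by 9287 peaks (68.8%), and the list held 5136 distinct pairs of these values. Equal values stood on distant genes, such as 7.35 on EFS and MYB65, and the cause was not tested.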

How the data were processed

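Native ChIP-seq libraries of 8-day-old seedlings had 1 library per antibody and genotype. The submitters' processing notes name MACS2, Bowtie2 2.2.6, Trimmomatic 0.33, SAMtools 1.3, Picard 2.2.4 and R 3.3.2, with TAIR10. Their settings, the pooled genotypes and the selection of peaks are not given in the sources used here. Depth per library is unknown. The deposited lists give each peak's score, its fold ratio over pooled H3, and its −log10 p and −log10 q, which are the authors' values per peak.

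Peaks were placed on 27444 protein-coding genes of the nucleus in the RefSeq gene table for TAIR10.1 with Python 3.11.15, pandas 2.3.3 and NumPy 2.4.6. Coordinates printed are the peaks' own, counted from 1. Class shares at like length are the shares of carriers in each member's decile of gene length, averaged over members. They were computed for H3K36me3 with the 200 bp rule only, and not for H3K4me3. These shares are over all genes of the decile, while classes found by symbol hold named genes only. Carriers made up 58.5% of genes with a symbol and 44.7% of those without, so the comparison is not matched for naming. The placement was run on simulated peaks planted on 200 genes of at least 2 kb that lay clear of other coding genes. All 200 were recovered, which checks the code only. Shorter genes, overlapping genes and peaks shared by genes were not tried. Members and gene lists were chosen with earlier results of these data known, and the name patterns of some classes were tidied, and 3 classes dropped, after the table's names were seen. Genes were named by rule: per class, up to 4 members outside the majority state, the 2 carriers of highest −log10 p and the 2 longest non-carriers, plus extremes of length, of −log10 p and of gene-poor bins, peaks over most genes, FPA, FLC and the H3K36 genes. Other class members named were chosen after their values were seen. Position from the transcription start was replaced by distance from whichever gene end was nearer the H3K4me3 summit, since the table has no strand. Planned promoter motifs are not analysed here. Alternatives were 3 other rules for carriage, the strongest 50% of peaks, genes of at least 2 kb, and bins of 500 kb.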

Additional observations from a re-analysis of the deposited data

How the results depend on the processing

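With the strongest 50% of peaks by −log10 p, 7062 genes were carriers, 43.0% of the longest and 3.57% of the shortest decile and 13.3% of genes in gene-poor bins. The far edge then lay at 71.4% of the gene, the summit at 327 bp, and 9 of 29 classes had a majority of carriers in place of 15. Fewer peaks lower these counts by construction. With 50% of the gene body as the rule, 59.8% of the longest decile and 20.3% of genes in gene-poor bins were carriers, and 301 peaks in place of 620 lay over more than 1 gene (869 with 1 bp as the rule). With a summit inside the gene, 5.50% of the shortest decile were carriers. In genes of 2 kb or more the far edge lay at 66.6% and the summit at 343 bp. The longest decile stayed above the shortest under every rule tried for carriage. With 50% of the body the shares were 19.0% for NLR genes, 31.8% for DNA replication licensing, 17.9% for cyclins, 36.4% for the kinesin list and 0% for vascular markers, and with the strongest peaks 4.55% for DNA replication licensing. Over all coding genes, 42.4% were carriers with 50% of the body. Motifs and their alternative window were not run. No paired analysis was possible because the list pools the libraries and the results come from no test. The unknown depth, the unknown pooling and the peaks left out before deposit limit what a missing peak shows.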
